A study of Mus musculus with 199 samples.

Results

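Chromosome 1 is the longest mouse autosome, and in the mm9 build it runs to position 197195432. All rows of the deposited 40 kb table that carry its name were taken, 4930 of 68162 rows, and set against the 56886 rows of the other 18 autosomes. In 141 of these windows 50% or more of the reference bases are undetermined, which includes the first 3 Mb, so 4789 usable windows remained. They were 8.00% of the usable autosomal windows and received 8.48% of the autosomal calls of the libraries described next.

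The study sliced frozen 46C mouse embryonic stem cells (strain 129/Ola) into 220 nm sections and put 4 profiles, each the slice of 1 cell, into a cap, which gave 1 library (4NP). Not every cell slice passes through the nucleus, and cresyl violet does not tell nucleus from cytoplasm, so a library can hold fewer than 4 nuclear slices. 46C is a derivative of a mouse embryonic stem cell line with a green fluorescent reporter in the Sox1 gene. The table held 186 4NP libraries, 11 water controls and 2 positive controls of 5 ng human genomic DNA in an empty cap, in 35 groups from 11 experiments, and each of them had failed the quality control of the authors. The experiments were a full collection of profiles stained with cresyl violet at 1%, tests of crystal violet at 1%, propidium iodide (PI) at 10 µg/ml with and without freezing, eosin at 0.5% in water or in 40% ethanol and SYBR Gold, a titration of proteinase K (PK) at volumes titled 1, 2, 3, 4 and 8 µl under the titles csc and mdc, and small tests of freezing, PCR cycles, kit size and reagent volumes. The PK volumes in the protocols of these libraries are 0.1, 0.2, 0.3, 0.4 and 0.8 µl, in the same order, and the volumes given here are those of the titles. The sample titles carry no replicate numbers, and those given here number the libraries of a group in the order of the sample list. All libraries come from 1 cell line, nothing in the labels ties them to separate cultures, and p-values therefore measure the spread between libraries.

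In genome architecture mapping (GAM), many thin slices are sequenced, and nuclear distance between a pair of loci is read from the number of slices that contain both. Each chromosome fills its own territory in the interphase nucleus, so a thin slice can pass through much of a chromosome or miss it, and distant windows of the same chromosome are expected to be sliced together more often than windows of different chromosomes. Mouse autosomes have the centromere at 1 end, so the first determined windows of chromosome 1 are centromere-proximal and the last are distal and near the telomere.

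The sequences below show where the mapped chromosome begins and ends, since sampling of both arm ends is measured further on, together with the most repetitive stretch (the fewest distinct 6-base words) of the chromosome 1 window called in most libraries. They are read from the plus strand of the mm9 reference. In the first 2, capitals would mark the telomere repeat unit TTAGGG or its reverse complement CCCTAA, and in the third they mark tandem copies of GGAA.
Centromere-proximal end, chr1:3000001-3000120: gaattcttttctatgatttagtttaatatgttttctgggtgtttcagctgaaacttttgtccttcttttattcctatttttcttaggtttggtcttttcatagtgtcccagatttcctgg
Distal end, chr1:197195313-197195432: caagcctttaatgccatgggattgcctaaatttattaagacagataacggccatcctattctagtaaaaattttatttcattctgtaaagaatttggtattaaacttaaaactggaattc
Most-called window, chr1:12630118-12630237: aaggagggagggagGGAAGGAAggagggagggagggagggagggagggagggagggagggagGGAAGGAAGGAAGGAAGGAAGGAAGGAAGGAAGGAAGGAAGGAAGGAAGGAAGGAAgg
The telomere unit was in neither end sequence, and 4.56% of all determined 120-base stretches of the chromosome held it on either strand. The window that holds the first sequence was called in 10 of the 186 4NP libraries and the window that holds the second in 4. Uninterrupted GGAAGGAAGGAAGGAAGGAAGGAA, or its reverse complement, was present in 1475 of the 4789 usable windows, or 30.8%. Windows with it were called in a median of 10 libraries and windows without it in a median of 9, and 1 of the 5 most-called windows held it.

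Depth is unknown, because the calls are 0 or 1 per window. The 186 4NP libraries had from 1 to 17628 called autosomal windows, with a median of 1549.5, and 117 of them reached 1% of the usable autosomal windows. Their autosomal coverage, the share of usable windows called, ran from 1.01% to 29.4% with a median of 6.77%. Among the 11 water controls, 9 lay under 1%, and in these the pooled coverage of chromosome 1 was 0.966 times that of the other autosomes. The remaining 2 water controls stood apart: chromosome 1 coverage was 20.2% in replicate 4 of the full collection and 28.4% in the unstained SYBR Gold control. Neither enters a comparison below. The 2 controls of human DNA had 0 and 1 called windows on chromosome 1. In the SYBR Gold test the titles and the staining protocols disagree, and the titles were followed.

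Nearly every usable window of chromosome 1 was reached. At least 1 4NP library called 4788 of the 4789, and on the other autosomes 99.1% were called. The only usable window never called, chr1:111640001-111680000, overlaps no protein-coding gene. A window was called in a median of 10 libraries (quartiles 7 and 12), against 9 on the other autosomes. The highest count was 32 libraries on chromosome 1 and also on chromosome 19, against 139 on chromosome 2, the highest of the other autosomes. Chromosome 1 had no window that most libraries shared, and neither had chromosome 19.

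Coverage of chromosome 1 differed more between libraries than its mean differed from the rest of the genome. Over the 117 libraries with at least 1% coverage, chromosome 1 was called at 8.16% ± 8.51 (SD) of its windows and the other autosomes at 7.62% ± 5.37. Relative coverage, the share called on chromosome 1 over the share called on the other 18 autosomes of the same library, ran from 0.00672 to 6.38 with a median of 0.891. Its mean was 1.09 ± 0.910 (SD, n = 117). It was above 1 in 51 libraries, above 2 in 15, above 3 in 5 and below 0.5 in 28. The mean did not differ from 1 beyond the spread (two-sided sign-flip permutation test, 100000 resamples, p = 0.308, adjusted p over 19 autosomes = 0.694). Of the 19 autosomes 0 passed, or 0.0%, with 1 unadjusted p below 0.05, that of chromosome 11 (p = 0.0151). On a log2 scale, where a library that nearly misses a chromosome weighs more, the mean was -0.50 ± 1.67 and passed (adjusted p = 0.00175), and so did all 19 autosomes, each below 0. The sign-flip test takes the spread to be symmetric, which relative coverage is not (median 0.891, mean 1.09), and the outcome changed with the scale. The pooled ratio over all 186 libraries was 1.07 ± 0.0817 (jackknife SE).

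The SD of 0.910 was the second largest of the 19 autosomes, after chromosome 8 at 0.962, although chromosome 1 has the most windows. This rank rests on PI-stained replicate 16, the library with the highest value: without it the SD of chromosome 1 was 0.768 and 8 autosomes were higher. Chromosome 2, the next longest, had a mean of 1.11 ± 0.882, and chromosome 3 had 0.978 ± 0.653. The smallest autosome, chromosome 19, had 1.00 ± 0.724. These SDs are given as a description and were not tested against each other.

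**Figure D1:**
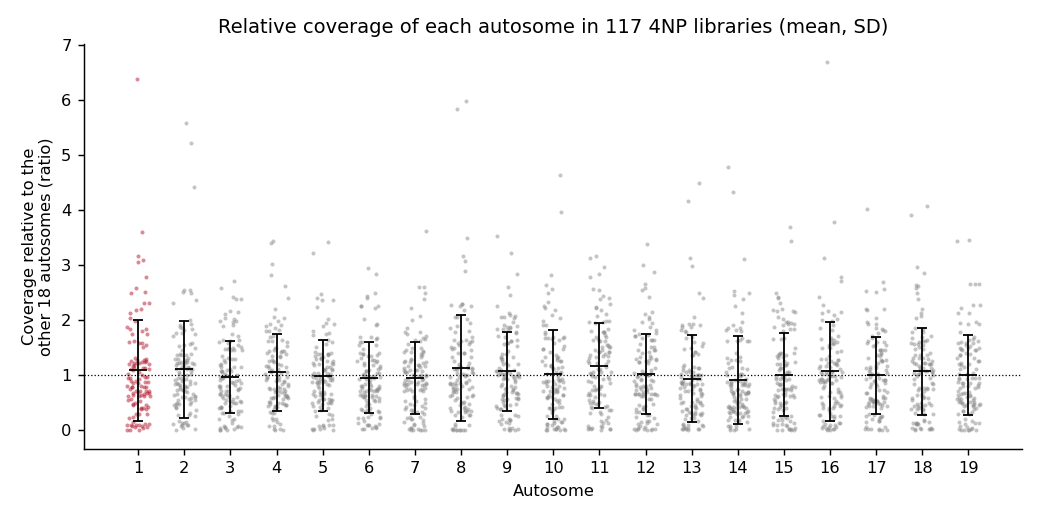
Coverage of each autosome relative to the other 18 autosomes of the same library (ratio, vertical axis) for autosomes 1 to 19 (horizontal axis) in 117 4NP libraries. Points are libraries, and black bars give the mean and SD; the points of chromosome 1 reach from 0.00672 to 6.38 around a mean of 1.09.

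Single libraries show how far this went. In PI-stained replicate 16, 35.2% of chromosome 1 was called (Wilson 95% interval 33.8% to 36.5%), against 5.51% of the other autosomes. In replicate 6 of the 1 µl csc PK libraries chromosome 1 stood at 20.3% (19.2% to 21.5%) and the others at 5.64%. The opposite was seen in PI-stained replicate 10, with 5139 called autosomal windows, of which 3 were on chromosome 1, or 0.0626% of it (0.0213% to 0.184%), while the other autosomes stood at 9.33%. In eosin-ethanol replicate 7 the values were 0.543% (0.371% to 0.794%) and 12.9%. These intervals cover counting error only, and neighbouring windows are not independent.

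Near-absence of the chromosome was not particular to it. Among the 68 libraries with at least 5% coverage, chromosome 1 lay under 1% in 6, and the count over the autosomes ran from 3 on chromosomes 9 and 14 to 9 on chromosome 15. Chromosome 1 was at or below its highest level in the 9 low water controls, 0.480%, in 7 of the 117 libraries. It was the most covered of the 19 autosomes in 9 libraries and the least covered in 6.

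The experiments differed in their mean for chromosome 1. In the PK titration the mean relative coverage was 1.55 ± 0.921 (SD, n = 26), with a lowest value of 0.0694, a median of 1.41 and a highest of 3.61, and 18 of 26 libraries lay above 1. In the PI experiment it was 1.29 ± 1.21 (n = 34), with a lowest value of 0.00672, a median of 1.10 and a highest of 6.38. Chromosome 1 ranked first of the 19 autosomes in both experiments, in the PI experiment only with PI-stained replicate 16, at 6.38, included. In the eosin test the mean was 0.732 ± 0.441 (n = 16), from 0.0421 to 1.51 with a median of 0.761, and chromosome 1 ranked last. In the SYBR Gold test it was 0.662 ± 0.520 (n = 14), from 0.00940 to 1.98 with a median of 0.599, and 2 of 14 libraries lay above 1. The full collection had 0.898 ± 0.442 (n = 8) and the crystal violet test 0.635 ± 0.477 (n = 6). Of the 6 libraries of the crystal violet test, 5 were unstained, with a mean of 0.511, and the 1 stained library stood at 1.25. All experiments overlapped.

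Within experiments, the unadjusted p was 0.00443 in the PK titration (sign-flip permutation test), 0.0295 in the eosin test and 0.0333 in the SYBR Gold test (both exact sign-flip tests). Over the 114 tests of 19 autosomes in 6 experiments none passed (0.0%), and the adjusted p of chromosome 1 in the PK titration was 0.472. Adjusted over the 19 autosomes of that experiment alone it was 0.0842. The adjustment over all 114 was added after the data were seen. The differences between experiments were not tested. Without the PK titration the mean over the remaining 91 libraries was 0.955 ± 0.867, on the other side of 1.

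Calls on chromosome 1 formed short stretches. A run is an unbroken stretch of called windows, and the 117 libraries had 24010 runs on chromosome 1 with 45722 calls. The mean run was 1.90 windows, against 1.81 on the other autosomes, and calls scattered at the coverage of each library would give 1.20 and 1.13. Of the chromosome 1 runs 63.3% were a single window, against 65.1% elsewhere. Runs of 10 to 24 windows held 8.25% of the calls, against 6.80% elsewhere, and 13 runs reached 1 Mb. These pooled values weight libraries by their calls and were not tested.

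Library by library, the log2 ratio of the mean run on chromosome 1 to that on the other autosomes averaged -0.08 ± 0.29 (SD, n = 117), and it was above 0 in 46 libraries (sign-flip permutation test, p = 0.00267, adjusted p = 0.00298). The same test called 18 of 19 autosomes, or 94.7%, and all 19 means were below 0. Chromosome 1 had the third highest mean of the 19. Measured against the mean of the same ratio over the other autosomes, the ratio of chromosome 1 was higher by 0.03 ± 0.33 (SD, n = 117; sign-flip permutation test, adjusted p = 0.772), a comparison added after the data were seen. In the 9 low water controls the pooled mean run on chromosome 1 was 1.02 windows.

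The 5 longest runs came from 4 libraries, and 2 of them from PI-stained replicate 16. The longest, chr1:95880001-99040000, covered 79 windows or 3.16 Mb and holds 10 annotated protein-coding genes, among them Pdcd1, which encodes the immune checkpoint receptor PD-1, St8sia4, a polysialyltransferase, and 3 solute carrier genes (Slco4c1, Slco6b1 and Slco6c1). Of the other 4, the 2 described here, both of 1.2 Mb, were chr1:20120001-21320000 in replicate 5 of the 3 µl PK libraries, with the cytokine genes Il17a and Il17f and the replication licensing gene Mcm3, and chr1:73960001-75160000 in replicate 3 of the 4 µl PK libraries. That region is dense, with 34 protein-coding genes, among them the chemokine receptor genes Cxcr1 and Cxcr2, Villin 1 (Vil1), Wnt6, Wnt10a and Indian hedgehog (Ihh).

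Windows of chromosome 1 were called together far beyond neighbouring windows. Linkage was measured as the normalized linkage disequilibrium D′ over the 186 libraries, which is 0 for independent windows and 1 when the rarer window is called only with the other. The mean over pairs of chromosome 1 windows with windows of other autosomes, -0.25 ± 0.06, was subtracted. The excess is therefore relative to pairs on different chromosomes, and the mean D′ itself was above 0 up to 10 Mb and below 0 at the 9 longer distances. The excess was 0.75 ± 0.05 (jackknife SE) for direct neighbours, 0.58 ± 0.05 at 400 kb, 0.48 ± 0.04 at 1 Mb and 0.32 ± 0.05 at 4 Mb. From there it fell slowly, to 0.27 ± 0.06 at 10 Mb, 0.23 ± 0.05 at 40 Mb and 0.17 ± 0.04 at 100 Mb. It was 0.11 ± 0.03 at 120 Mb and 0.09 ± 0.05 at 140 Mb. At 160 Mb it was 0.13 ± 0.05 and at 180 Mb, near the full length of the chromosome, 0.24 ± 0.09.

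The excess was more than 2 SE above 0 at 13 of the 14 distances, all but 140 Mb. Under 6 alternative choices of libraries or windows the number of distances beyond 2 SE ran from 7 to 14. Over all autosomes and distances 82.4% of values lay beyond 2 SE. From 10 to 60 Mb chromosome 1 had the highest value of the autosomes long enough for the distance, but its difference from their mean was within 2 SE there (0.08 ± 0.05 at 10 Mb and 0.10 ± 0.05 at 40 Mb). At 100 Mb the difference was 0.11 ± 0.05, or 2.23 SE, over 14 other autosomes. Chromosome 15, with 325 pairs at that distance, stood at -0.32. With the 13 other autosomes that have at least 10000 pairs the difference was 0.08 ± 0.05, within 2 SE, and chromosome 1 ranked behind chromosome 4 at 0.19.

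The second measure set the expected value inside each library: the share of pairs with both windows called, summed over libraries, over the product of chromosome 1 coverage and the coverage of the other autosomes. This co-segregation ratio was 4.34 ± 0.308 (jackknife SE) for direct neighbours, 2.62 ± 0.216 at 1 Mb, 1.71 ± 0.183 at 10 Mb and 1.61 ± 0.178 at 40 Mb. It was 1.40 ± 0.133 at 100 Mb, 1.25 ± 0.155 at 140 Mb, 1.30 ± 0.139 at 160 Mb and 1.72 ± 0.278 at 180 Mb. It lay beyond 2 SE of 1 at 13 of 14 distances, where 73.7% of the values of all autosomes did. With each library of at least 1% coverage weighted equally it was beyond 2 SE at 5 distances, with 0.944 ± 0.0814 at 100 Mb and 1.30 ± 0.228 at 180 Mb. The fall from 10 to 100 Mb was 0.316 ± 0.113, beyond 2 SE. The rise from 160 to 180 Mb, 0.421 ± 0.228, was not.

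Chromosome 1 had the highest ratio of all long enough autosomes at every distance up to 60 Mb, but none of those differences from their mean passed 2 SE (0.351 ± 0.205 for neighbours and 0.299 ± 0.176 at 40 Mb). The excess over 1 fell to 50% of its value for neighbours at 0.913 ± 0.144 Mb, against a mean of 0.712 Mb for the other autosomes, a difference of 1.38 SE. At 160 Mb only chromosome 2 could be compared. It stood at 0.861 ± 0.155, and chromosome 1 was higher by 0.438 ± 0.203, or 2.16 SE. This difference was within 2 SE without the PK titration (0.288 ± 0.187) and without PI-stained replicate 16 (0.402 ± 0.203). Against chromosome 3 the difference was 0.443 ± 0.171 at 100 Mb, or 2.59 SE. These 2 were the only values past 2 SE among 25 distance comparisons with chromosomes 2 and 3, which were added after the data were seen.

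Part of this ratio is the coverage of the windows that can be paired, since at long distances these lie near the ends. Divided by the ratio that the mean coverage of the paired windows over the libraries gives by itself, a correction added after the data were seen, the ratio of chromosome 1 was 1.31 ± 0.0866 at 100 Mb, 1.19 ± 0.0887 at 160 Mb and 1.28 ± 0.140 at 180 Mb. It was beyond 2 SE of 1 at 12 of 14 distances, all but 140 and 180 Mb, where 83.4% of the values of all autosomes were. The difference from chromosome 2 at 160 Mb was then 0.193 ± 0.138 and that from chromosome 3 at 100 Mb 0.258 ± 0.137, both within 2 SE. From chromosome 2 it differed by more than 2 SE at 10, 20, 60 and 80 Mb, with 0.307 ± 0.125 at 10 Mb and 0.226 ± 0.0998 at 80 Mb. From the mean of the other autosomes it differed by 0.194 ± 0.0868 at 80 Mb (2.23 SE) and by 0.204 ± 0.0927 at 100 Mb (2.20 SE), and with the autosomes of at least 10000 pairs by 0.181 ± 0.0884 (2.04 SE) and 0.152 ± 0.0932 (1.63 SE).

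**Figure D2:**
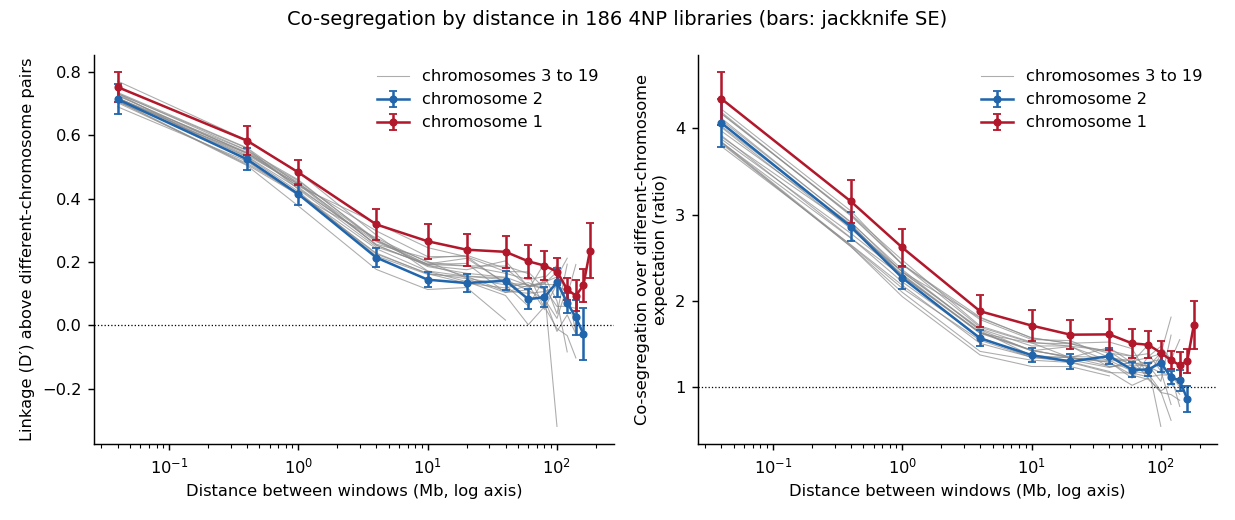
Linkage above different-chromosome pairs (D′, left) and co-segregation ratio (right) against the distance between windows (Mb, log axis) in 186 4NP libraries, with jackknife SE for chromosomes 1 and 2 and thin grey lines for chromosomes 3 to 19. On the right, chromosome 1 falls from 4.34 for neighbours to 1.25 at 140 Mb and stands at 1.72 at 180 Mb, which no other autosome reaches.

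The ratio at long distances contains the spread in chromosome-wide coverage between libraries described above. For all pairs of chromosome 1 windows together, the square of its coverage over its product with the coverage of the other autosomes was 1.55 ± 0.149, the highest of the 19 autosomes, against a mean of 1.37 for the others (difference 0.176 ± 0.146, within 2 SE). With the square of chromosome 1 coverage as the expected value, the mean over all pairs of the chromosome is fixed near 1 by construction, so values above 1 at short distances go with values below 1 at long ones. A longer chromosome also has more pairs at long distances, and it can sit higher than a shorter one at the same distance for that reason, so these values are a description. The ratio was 2.81 ± 0.185 for neighbours, 1.21 ± 0.0398 at 4 Mb, 1.11 ± 0.0417 at 10 Mb and 1.04 ± 0.0256 at 40 Mb. It was 0.902 ± 0.0357 at 100 Mb, 0.847 ± 0.0582 at 120 Mb and 0.809 ± 0.0612 at 140 Mb. The means of the other autosomes long enough for these distances were 0.841, 0.846 and 0.786, over 14, 10 and 6 autosomes. The distances at which chromosome 1 and that mean differed by more than 2 SE were 40 Mb (by 0.0843 ± 0.0283) and 80 Mb (by 0.0694 ± 0.0326), with chromosome 1 higher. At 180 Mb, which only chromosome 1 reaches, the ratio was 1.11 ± 0.178.

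The PK titration weighed on the distance values. Without it the linkage excess was beyond 2 SE at 7 distances in place of 13, and it stood at 0.12 ± 0.07 at 100 Mb. The co-segregation ratio without it was beyond 2 SE at 5 distances and stood at 1.24 ± 0.182 at 100 Mb. The libraries of that experiment share a library preparation mix of 5.35 µl and an amplification mix of 108.9 µl, where most other experiments had 4.95 and 85.0 µl or 4.32 and 87.84 µl, and the part of these volumes in the result was not tested.

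The product of the coverage of both ends of chromosome 1 was higher than that of its proximal end with the distal ends of other autosomes, and the difference was within 2 SE once the coverage of the distal end itself was taken into account. The first 250 usable windows, chr1:3000001-13000000, and the last 250, chr1:187160001-197195432, were taken as the arm ends. Coverage over the 186 libraries was 5.29% for the proximal end and 6.16% for the distal end. The arm-end ratio, the sum over libraries of the product of both ends over the same product with the distal ends of the other 18 autosomes, was 1.57 ± 0.218 (jackknife SE), 2.63 SE above 1. It was beyond 2 SE for 4 of 19 autosomes (21.1%), chromosomes 1, 11, 12 and 15. Chromosome 1 ranked second after chromosome 11 at 1.61 ± 0.191.

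The ratio is not corrected for how often the distal end itself was called, and those 4 autosomes were the 4 with the highest distal coverage. It was 6.67% on chromosome 11, 6.26% on chromosome 15, 6.21% on chromosome 12 and 6.16% on chromosome 1, with a mean of 5.05% over the 18 autosomes other than chromosome 1. Divided by distal coverage over that of the other autosomes, 1.22 for chromosome 1, its ratio was 1.29 ± 0.145, or 1.99 SE above 1, and it ranked 5th of the 19. This correction was added after the data were seen. Under it 7 of 19 autosomes were beyond 2 SE (36.8%), and chromosome 13 was highest at 1.51 ± 0.199.

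Before the correction, the difference of chromosome 1 from the mean of the other autosomes, 0.422 ± 0.228, was within 2 SE, and without the full collection it was 0.475 ± 0.230, beyond 2 SE. With the correction it was 0.121 ± 0.152. Chromosomes 2 and 3, the next in length, stood at 0.944 ± 0.211 and 0.886 ± 0.200. Chromosome 1 was higher than chromosome 2 by 0.630 ± 0.296 (2.13 SE) and higher than chromosome 3 by 0.688 ± 0.332 (2.07 SE), 2 comparisons added after the data were seen. The distal ends of these chromosomes were called at 4.19% and 4.45%, both below the mean. With the correction chromosome 2 stood at 1.16 ± 0.202 and chromosome 3 at 1.02 ± 0.197, and chromosome 1 differed from them by 0.128 ± 0.247 and 0.264 ± 0.259, both within 2 SE. Uncorrected, the chromosome 1 ratio was 1.42 ± 0.306 without the PK titration, which is within 2 SE of 1. Leaving out any 1 library moved it between 1.47 and 1.63.

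**Figure D3:**
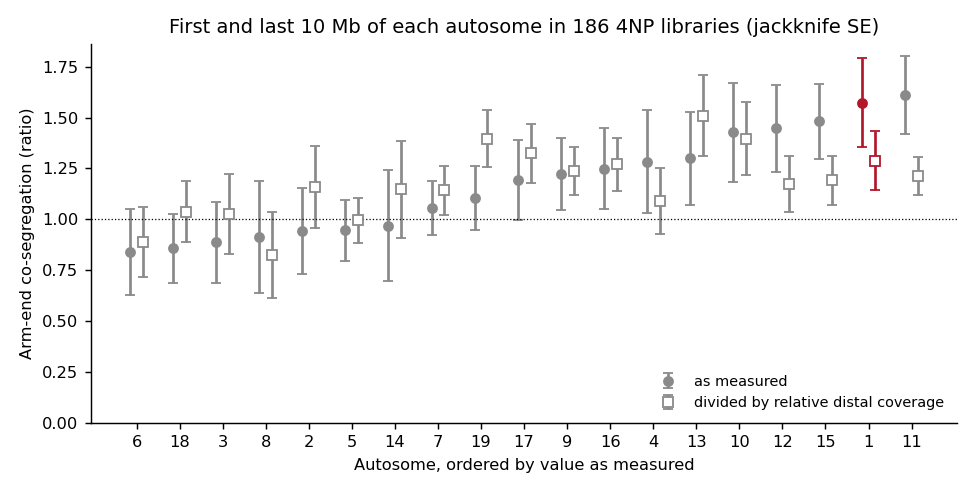
Arm-end co-segregation ratio (vertical axis, from 0) of each autosome (horizontal axis, ordered by value) in 186 4NP libraries, with jackknife SE. Filled circles are the ratio as measured and open squares the ratio divided by relative distal coverage; chromosome 1, in red, moves from 1.57 to 1.29 and chromosomes 2 and 3 from below the dotted line at 1 to 1.16 and 1.02.

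A single called window of 250, or 0.4%, was enough to count an end as called. In the low water controls coverage of chromosome 1 reached 0.480%, so such counts include background. Counted by library, 92 of the 186 had a call at both ends of chromosome 1 and 40 at neither. In 28 the call was at the proximal end only and in 26 at the distal end only. Of the other 18 autosomes 10 had both ends called in more than 92 libraries, and their counts ran from 74 to 111 with a median of 93.5. Of the 117 libraries with at least 1% coverage, 23 had both ends above the coverage of the library, 26 only the proximal end, 30 only the distal end and 38 neither. The library with the largest product was replicate 14 of the PI-stained and frozen group, with 38% of the proximal and 48% of the distal end called. In replicate 2 of the 25-cycle PCR libraries the ends stood at 36.4% and 42.4% while the whole of chromosome 1 stood at 8.44%. Other libraries held a single end. PI-stained replicate 16 had 0.4% of the proximal and 74.4% of the distal end, and PI-stained replicate 11 had 25.6% of the proximal and 0.4% of the distal end.

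Along the chromosome, the bins with low coverage were mostly low in GC content. In bins of 10 Mb, coverage over that of all autosomes of the library was lowest at 110 to 120 Mb (0.810 ± 1.04, SD, n = 117) and highest at 180 to 190 Mb (1.39 ± 1.64). The first of these bins holds 4 annotated protein-coding genes and has a GC content of 37.7%, and the second holds 76 and has 44.1%. The low bin lay below the rest of the chromosome by 0.229 ± 0.861 of the library coverage, in 81 of 117 libraries (sign-flip permutation test, p = 0.00467, adjusted p = 0.0569). The high bin lay above it by 0.378 ± 1.43 on average, but in only 60 of 117 libraries (p = 0.00433, adjusted p = 0.0569). Of the 20 bins 0 passed, where 15 of 251 bins passed over all autosomes, or 5.98%, of which 4 were higher (1.59%) and 11 lower (4.38%). Without PI-stained replicate 16 the low bin passed (adjusted p = 0.0353).

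The last bin, from 190 Mb, stood at 1.22 ± 1.53, and both of the last bins were above every bin before 180 Mb. Across the 20 bins the mean relative coverage and GC content had a Pearson r of 0.701 and a Spearman rho of 0.671, and across the 231 bins of the other autosomes r was 0.566. The bin from 140 to 150 Mb had the lowest GC content, 37.4%, with a relative coverage of 1.01. The bins share their libraries, and these values are a description. With all usable autosomal windows split into 5 equal classes of GC content, those in the lowest class stood at 0.895 ± 0.733 times the library coverage on chromosome 1 and those in the highest at 1.21 ± 0.960, against 0.848 and 1.16 on the other autosomes. Chromosome 1 had 13.5% of its windows in that highest class, where the other autosomes had 20.6%.

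**Figure D4:**
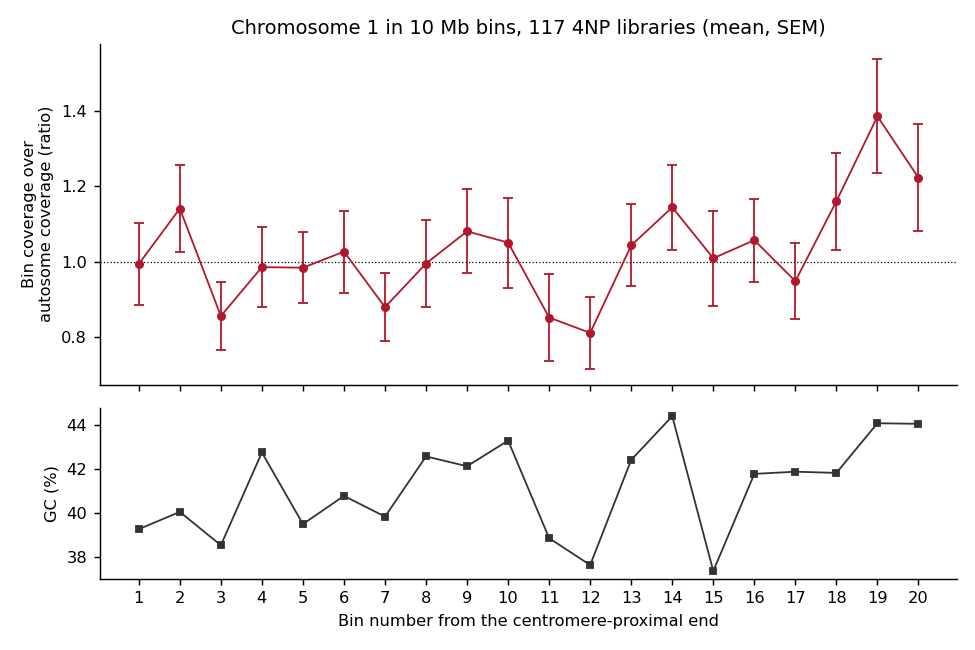
Coverage of the 20 bins of 10 Mb of chromosome 1 over autosome coverage (ratio, top, mean and SEM over 117 4NP libraries) and their GC content (percent, bottom) by bin number from the centromere-proximal end. Bin 12 is lowest at 0.810 and bin 19 highest at 1.39, with GC contents of 37.7% and 44.1%.

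Windows with a protein-coding gene were called more often than those without. On chromosome 1, 2462 usable windows overlap such a gene and 2327 do not, and mean coverage over the 117 libraries was 8.54% and 7.76%. The difference was 0.124 ± 0.434 of the chromosome 1 coverage (SD), positive in 82 libraries (sign-flip permutation test, p = 0.00195, adjusted p = 0.00309). The same test called 15 of 19 autosomes, or 78.9%, and chromosome 1 ranked 15th in size of the difference. It did not differ from the mean of the other autosomes, 0.156, beyond the spread (sign-flip permutation p = 0.409). Gene windows had a GC content of 42.3% and the others 39.9%. Within 5 classes of GC content the difference was 0.0647 and did not pass (adjusted p = 0.181), nor did it among the 68 libraries with at least 5% coverage (0.0797, adjusted p = 0.0749).

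Named genes were described by the number of 4NP libraries, of 186, that called their windows. The median over all usable windows of chromosome 1 was 10, and so was the median over its 1238 protein-coding genes, of which 48.9% lay above 10. Of 25 genes used in stem cells or in every cell, 21 lay above 10 and 4 below, with a median of 12.5. The list was chosen with earlier results of these data known, and its genes are not independent. Parp1, H3f3a, Lefty1, Lefty2, Nvl and Eprs all lie in the bin from 180 to 190 Mb, which had the highest relative coverage. The part of position in these counts was not tested. Zfp281, a zinc finger factor of the pluripotency network, H3f3a, which encodes histone H3.3, and Rpl7, a ribosomal protein gene, each lay in a window called in 20 libraries. The windows of Nr5a2, a nuclear receptor gene active in pluripotent cells, were called in 13 to 15 libraries. Lefty1 and Lefty2, inhibitors of Nodal signalling, stood at 12 each. Hspd1 and Hspe1, the neighbouring genes of the mitochondrial chaperonin, share a window called in 16. Tpr, a nuclear pore gene, was lowest with a median of 6. The windows of this list had a mean GC content of 42.7%, against 41.1% for the chromosome.

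Of 31 genes chosen as long genes, 10 lay above the chromosome median, 3 at it and 18 below, with a median of 9 and a mean GC content of 39.8%. Khdrbs2, an RNA-binding protein gene, and Astn1, which encodes the neuronal protein astrotactin 1, had the lowest medians at 5. Erbb4, a receptor tyrosine kinase gene of 28 windows, had a median of 6. Esrrg, an orphan nuclear receptor gene, and Eya1, a transcriptional coactivator gene, had the highest at 14. Esrrg, with 16 windows, was touched by 59 libraries and called along its whole length in 2. Pard3b, a cell polarity gene of 26 windows, was touched by 56 libraries and called whole in 0. 

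Of 28 immune genes, 11 lay above the chromosome median, 7 at it and 10 below, and their median equalled that of the chromosome. Cd244 and Ly9, neighbouring receptor genes of the SLAM family, share a window called in 25 libraries. Stat4, a transcription factor gene of cytokine signalling, had the lowest median at 6.5, and Cxcr4, a chemokine receptor gene, stood at 8. The list members were given no test.

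The 5 windows called in most 4NP libraries stood above their neighbours or next to each other. The highest, chr1:12600001-12640000, overlaps no annotated gene and was called in 32 libraries, while the windows beside it were called in 9 and 11. It was also called in 1 of the 9 low water controls. The window chr1:87480001-87520000, with exons of Sp110 and Sp140, genes of nuclear body proteins, was called in 31. The window chr1:85240001-85280000, with C130026I21Rik, was called in 28. The adjoining windows chr1:173440001-173480000 and chr1:173480001-173520000 were called in 27 and 25, and hold exons of the intelectin gene Itln1 in the first and of Cd244 and Ly9 in the second. Genes with near-identical copies can share reads, and how that entered the calls was not tested.

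In the 9 low water controls 64 usable windows of chromosome 1 were called in at least 1, or 1.34%, which was also 1.34% on the other autosomes. The median number of 4NP libraries was 11.5 in these windows and 9 in the rest. Only chr1:42720001-42760000, with Pou3f3, a neural transcription factor gene, and 2610017I09Rik, was called in 2 of them. The next 4 by position, each called in 1, hold exons of St18, of Mybl1 and Vcpip1, and of Prex2, and the last is the gene-free window with 32 4NP calls.

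Between conditions the measures of chromosome 1 did not differ past the adjusted threshold. Of 10 comparisons 7 had at least 3 libraries with 100 called windows on each side, which gave 14 tests of relative coverage and run length ratio, and 0 passed (0.0%), with 2 unadjusted p below 0.05. Both came from the crystal violet test, whose sample titles name the experiment cresyl violet and the stained condition crystal violet. Relative coverage was 0.969 ± 0.344 in the 16 stained libraries and 0.511 ± 0.412 in the 5 unstained ones (p = 0.0233 in a two-sided exact permutation test, 0.163 after adjustment). Of 80 pairs of a stained and an unstained library 63 had the stained one higher. The unstained libraries stood at 0.977, 0.0865, 0.795, 0.620 and 0.0769. The log2 run length ratio was 0.01 ± 0.04 with the stain and -0.50 ± 0.66 without it (exact permutation p = 0.0106, adjusted p = 0.148). Without unstained replicate 1 this difference passed (adjusted p = 0.00372). A single stained library reached 1% coverage, whereas all 5 unstained ones did. The pooled mean run in the 9 low water controls, also under 1%, was 1.02 windows on chromosome 1 and 1.02 on the other autosomes. At such coverage few calls are neighbours, which keeps the run length ratio near 0. The comparison of run length therefore cannot tell the stain from coverage.

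PI-stained libraries stood at 1.47 ± 1.41 (SD, n = 19) and PI-stained and frozen ones at 1.05 ± 0.847 (n = 20), a difference of 0.417 (permutation p = 0.289, adjusted p = 0.598). Without PI-stained replicate 16 the difference was 0.144 (permutation p = 0.589, adjusted p = 0.816). Eosin in ethanol gave 0.599 ± 0.387 (n = 8) and eosin in water 0.865 ± 0.476 (n = 8; exact permutation p = 0.237, adjusted p = 0.598). In the PK titration relative coverage was 1.61 ± 1.13 for 1 µl csc (n = 7), 1.36 ± 1.02 for 3 µl mdc (n = 7), 1.58 ± 0.762 for 4 µl mdc (n = 7) and 3.03 ± 3.69 for 8 µl mdc (n = 6), with adjusted p of 0.598 to 0.960 (exact permutation tests). The last mean rests on replicate 1, with 51 of its 108 calls on chromosome 1. With libraries of at least 500 calls, 3 µl exceeded 8 µl by 0.00831.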

How the data were processed

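Calls of 40 kb windows in 199 libraries were analysed. Per the labels and methods, the authors amplified DNA with WGA4, made Nextera libraries, aligned reads to mm9 with Bowtie2, removed duplicates with Samtools and had GAMtools call a window from 4 reads on. The values as deposited are other than counts: calls of 1 or 0, with no read depth. Reference and table chromosome lengths were equal. Genes came from the GENCODE annotation of the same build.

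Windows with at least 50% undetermined bases were left out. Groups followed sample titles, and replicate numbers are the order within a group. Values per chromosome were tested with sign-flip permutations (100000 resamples, exact with 16 or fewer libraries) and groups with permutation tests, Benjamini-Hochberg adjusted. Errors of sums over libraries are jackknife SE, with more than 2 SE taken as beyond error. D′ used windows called in at least 2 libraries and 200000 different-chromosome pairs. Distances of 10 Mb or more are bands of 1 Mb. Measures were tested on simulated data (Python 3.11.15, numpy and numba). Named windows were the 5 most called in 4NP libraries and in low water controls, the 5 longest runs, bins past the threshold and 3 gene lists; 2 of the runs are not reported here. The members and lists were chosen with earlier results of these data known.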

Additional observations from a re-analysis of the deposited data

Results flagged for a closer look

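In all, 16 sets of values, each 1 measure of chromosome 1 in a group of 4 to 10 4NP libraries, were tested for a library far from the others, and 3 held one, where chance gives about 1 in 20. In the full collection, replicate 5 had a log2 run length ratio of -0.49, with the nearest library at -0.11. It had 151 calls on chromosome 1 of 7061 on all autosomes. Among the 8 µl PK libraries, replicate 1 had a relative coverage of 10.3, with the nearest at 3.06, from 51 calls on chromosome 1 of 108 in all. In the same group replicate 3 had a log2 run length ratio of 0.29, with the nearest at 0.03, from 1649 calls on chromosome 1.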

How the results depend on the processing

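No paired analysis was possible because the labels carry no replicate numbers (those in the text number the libraries of a group in the order of the sample list). Of 184 values recomputed under alternatives, 147 kept their direction and their side of the threshold or moved little. Relative coverage was -0.50 on the log2 scale and 0.955 without the PK titration. It was 0.635 within the crystal violet test, where 5 of 6 libraries were unstained. Within the eosin test it was 0.732, within the full collection 0.898 and within the SYBR Gold test 0.662. The pooled ratio was 0.888 without the PK titration. The run length ratio was -0.024 with the longest run and 0.028 against the other autosomes. Without the PK titration linkage was beyond 2 SE at 7 distances, with 0.12 at 100 Mb, 0.18 at 180 Mb and a difference from the other autosomes of 0.060 at 100 Mb, and co-segregation at 5, with 1.24 at 100 Mb and 1.52 at 180 Mb. That linkage difference was 0.10 without PI-stained replicate 16 and 0.077 with autosomes of at least 10000 pairs. With libraries weighted equally co-segregation was beyond 2 SE at 5 distances, with 0.944 at 100 Mb and 1.30 at 180 Mb, and with the chromosome's own coverage at 8, with 0.902 and 1.11. Corrected for the coverage of the paired windows it was 1.28 at 180 Mb, and 0.204 above the other autosomes at 100 Mb. The arm-end ratio was 1.42 without the PK titration and 1.29 corrected for the coverage of the distal end, and its difference from the other autosomes 0.475 without the full collection. Without PI-stained replicate 16, 1 bin of chromosome 1 passed, at 110 to 120 Mb (-0.248). The gene window difference was 0.0647 within GC classes and 0.0797 with libraries of at least 5% coverage. With at least 500 calls, 3 µl PK minus 8 µl was 0.00831 and 4 µl minus 8 µl 0.0103, and 1 µl csc minus 4 µl mdc was -0.062 on the log2 scale. The crystal violet difference in run length ratio ran from 0.323 to 0.661 when each unstained library was left out in turn, and passed only without replicate 1. The causes were not tested. Depth is unknown, and a window not called may have been missed.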

Other observations

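The table also holds 31 rows of chromosome 1 sequence that is not placed on the chromosome. Of these rows 0 were called in any of the 186 4NP libraries, the 9 low water controls or the 2 water controls with at least 1% coverage.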
